A study of Mus musculus with 6 samples.

Results

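Synaptic and neuronal subtype miRNAs are described here in the prefrontal cortex of BTBR mice, set against C57BL/6J mice. The set comprises every assay on the panel named for miR-7, miR-7a, miR-7b, miR-129, miR-137, miR-138, miR-153, miR-218, miR-383 or miR-551b, whichever the arm, copy, species of design or pool. These names gave 16 of the 750 miRNA assays. By the letter that ends the identifier, 10 of them belong to pool A and the other 6 to pool B. MicroRNA (miRNA) levels were measured by TaqMan OpenArray real-time PCR in 6 male mice, 3 per strain, aged 5 months and given no drug. One strain had the genotype BTBR T+ Itpr3tf/J, an inbred line studied for its low sociability, and the controls were wild type C57BL/6J. The strain background field reads C57BL/6J for all 6 mice, so BTBR is taken from the genotype and the title. Inbred strains differ at many loci at once, so no difference can be tied to one allele. The tissue was whole prefrontal cortex, a mixture of cells, in which fewer cells of a type and less RNA per cell cannot be told apart.

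A miRNA is a short RNA cut from a hairpin precursor. It guides Argonaute proteins to messenger RNAs that pair with its seed, bases 2 to 8 from its 5′ end, and thereby lowers their translation and stability. Either strand of the hairpin can be kept, and the names end in -5p or -3p for the arm, or in # for the strand held to be less abundant. Of the set, miR-138 is known as a brake on dendritic spine growth in rat hippocampal neurons. In rat neurons miR-129-5p is known as a factor in the scaling down of synapses. A brain-enriched miRNA, miR-137 lies at a human locus linked to schizophrenia. The miR-7 family is abundant in neuroendocrine cells and is bound in brain by the circular RNA Cdr1as. The miR-218 hairpins lie in the axon guidance genes Slit2 and Slit3.

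The mature sequences below show which assays can read related molecules, with the seed in capitals, 5′ to 3′. They are the mouse RefSeq sequences on GRCm38.p6 for the names matched, 9 of the 10 names, and not the sequences of the assay probes.
mmu-miR-7a-5p: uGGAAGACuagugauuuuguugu
mmu-miR-7b-5p: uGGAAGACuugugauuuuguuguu
mmu-miR-7a-1-3p: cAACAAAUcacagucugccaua
mmu-miR-7a-2-3p: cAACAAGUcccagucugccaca
mmu-miR-129-5p: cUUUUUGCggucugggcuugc
mmu-miR-129-2-3p: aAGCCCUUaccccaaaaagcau
mmu-miR-137-3p: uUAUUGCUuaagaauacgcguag
mmu-miR-138-5p: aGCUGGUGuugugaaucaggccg
mmu-miR-153-3p: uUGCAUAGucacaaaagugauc
mmu-miR-218-5p: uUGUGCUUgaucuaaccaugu
mmu-miR-551b-3p: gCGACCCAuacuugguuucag

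Of these, miR-7a-5p and miR-7b-5p share a seed and differ by A10U, counted from the 5′ end of miR-7a-5p, and by an added last base in miR-7b-5p (23 and 24 bases). The passenger strands of the miR-7a copies differ within the seed, by A7G, and by A10C and U21C (counted on miR-7a-1-3p), so they do not share one. The names of the rat assays rno-miR-7# and rno-miR-7a# do not say which copy they read. The arms of miR-129 have unrelated seeds.

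Several of these miRNAs are made from more than 1 locus, which an assay for the mature sequence cannot separate. On GRCm38.p6, miR-129-5p lies at chr6:29022624-29022644 on the plus strand (Mir129-1) and at chr2:94241419-94241439 on the minus strand (Mir129-2), inside the span of the long noncoding gene Mir670hg. The copies of miR-138-5p are at chr9:122682898-122682920 (Mir138-1) and chr8:94324312-94324334 (Mir138-2), both on the plus strand, the second inside the span of the nucleoporin gene Nup93. Those of miR-218-5p are at chr5:48223966-48223986, within Slit2, and at chr11:35616840-35616860, within Slit3, both on the plus strand. A copy of miR-7a-5p lies within Hnrnpk at chr13:58392841-58392863 on the minus strand, and the other, at chr7:78888295-78888317 on the plus strand, within no other gene of the table. On the plus strand, miR-153-3p lies within the span of Ptprn2, a gene of dense-core vesicles, at chr12:117250860-117250881, miR-551b-3p within Egfem1 at chr3:29416879-29416899, and miR-137-3p within no other gene at chr3:118433901-118433923.

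Each reading is a cycle threshold, the number of PCR cycles run before the signal crosses a set level, so a higher threshold stands for less RNA and 1 cycle for a 2-fold difference. A threshold of 40 was read as undetermined, and a raw reading of at least 10 and below 40 as detected. Between 347 and 404 of the 750 assays were detected in BTBR samples and between 289 and 305 in C57BL/6J samples. Each assay was run once per sample, and the 3 mice per strain limit the precision. BTBR replicate 3 was unlike its strain mates: in the normalized table (189 assays with 6 values) it correlated at 0.918 to 0.938 with the other BTBR samples and at 0.945 to 0.966 with the C57BL/6J samples. The neuronal marker miRNAs miR-124a, miR-128a and the second strand of miR-9 were detected in all 6 samples. The main strand, hsa-miR-9, abundant in brain, was undetermined in BTBR replicate 3 and in all C57BL/6J samples, so an undetermined reading here does not show absence. The last of the 5 neuronal marker assays, hsa-miR-124#, was undetermined in all BTBR samples. In C57BL/6J replicates 1 to 3 it read 22.735, 21.703 and 13.676 cycles. Of 17 assays for choroid plexus markers, between 8 and 14 were detected in BTBR samples and 5 or 6 in C57BL/6J samples. Of 6 microglial and myeloid marker assays, between 3 and 4 were detected in BTBR samples and between 1 and 4 in C57BL/6J samples. In that list, 1 of the assays named hsa-miR-223 was undetermined in all 6 samples and the other was read in 5, and mmu-miR-155 was read under 10 cycles in all BTBR samples and undetermined in all C57BL/6J samples. On the authors' normalized scale, where negative log2 changes mean less RNA in BTBR, the myeloid marker hsa-miR-146a was at -0.99 (limma adjusted p = 0.0396) and the oligodendrocyte marker hsa-miR-338-3p at -3.08 (limma adjusted p = 0.0336). Each was the 1 assay that passed of 3 tested in its marker list. Of all tested assays, 36.8% passed on that scale, and their median change was -1.13. On the global mean scale, described below, the same markers were at -1.32 and -1.61, and neither passed (limma adjusted p = 0.142 and 0.231). The other tested myeloid assays went both ways. On the authors' scale hsa-miR-142-3p was at -2.14 and hsa-miR-223 at 0.22, and with the global mean at -1.26 and 0.75. The other tested oligodendrocyte assays, hsa-miR-219 and hsa-miR-219-2-3p, were at -2.36 and -1.54, and with the global mean at -0.53 and -0.34. The part of these cell types in the results below was not tested.

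The comparison asks whether BTBR cortex holds more or less of these miRNAs than C57BL/6J cortex. On the authors' normalized values, 1 of the 10 assays that could be tested was lower in BTBR, hsa-miR-129, 0 were higher and 9 did not pass. On raw thresholds centred on each sample's own mean over the assays detected in all 6 samples, here called the global mean scale, 0 of the 10 passed. The tests were limma fits over all assays with at least 2 detected values per strain (231 on the authors' scale and 270 after centring), with Benjamini-Hochberg adjustment and a threshold of 0.05. On the authors' scale 36.8% of all tested assays passed, 35.5% as lower and 1.3% as higher, so 1 of 10 is below the background of the panel. That background changed as single samples were left out. The share of the panel that passed was 0% without BTBR replicate 1, 3.76% without BTBR replicate 2 and 47.6% without BTBR replicate 3. It was 29.1% without C57BL/6J replicate 1, 1.42% without C57BL/6J replicate 2 and 0% without C57BL/6J replicate 3. With all 6 samples, an unadjusted p under 0.05 was reached by 3 of the 10, against 48.9% of the panel. With the global mean, 0% of the panel passed and 26.3% had an unadjusted p under 0.05, against 0 of the 10 assays described here. Without BTBR replicate 3, 22.1% of the panel (57 of 258 assays) passed on that scale, and still 0 of the 10. With no centring, 0 of the 10 had an unadjusted p under 0.05, against 19.3% of the panel. Log2 changes below are BTBR minus C57BL/6J, so that a negative value means less RNA in BTBR.

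**Figure D1:**
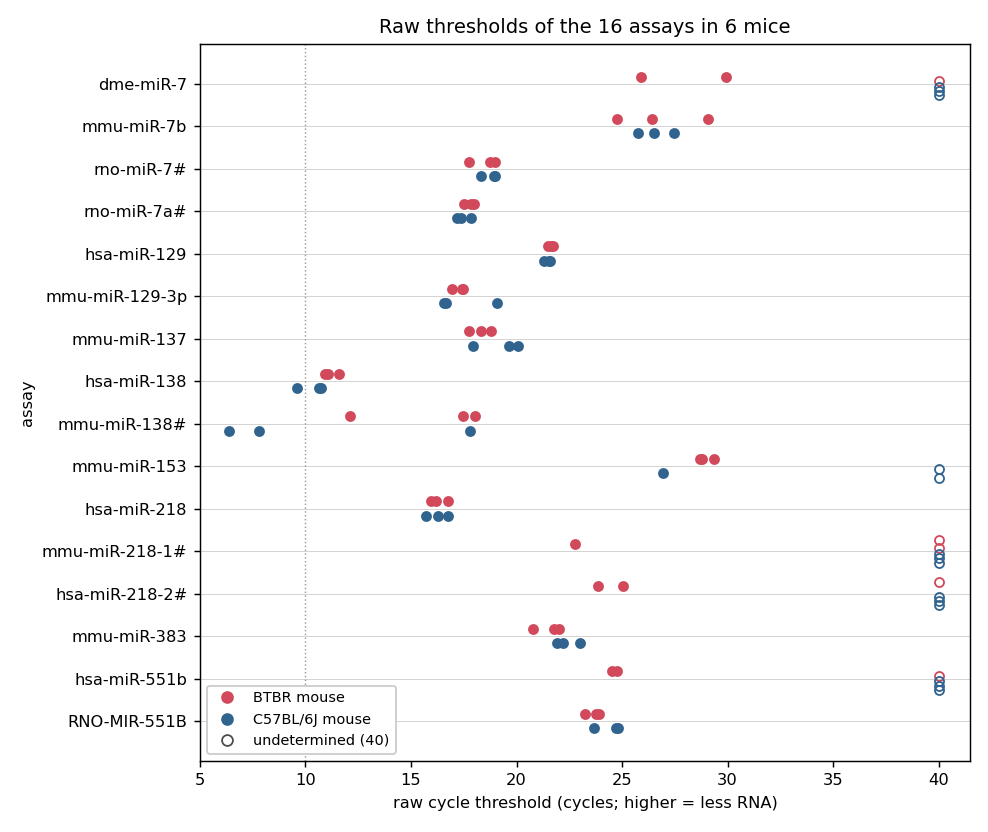
Raw cycle thresholds (x axis, cycles) of the 16 assays (y axis) in 3 BTBR mice (red, upper) and 3 C57BL/6J mice (blue, lower); open circles at 40 are undetermined and the dotted line marks 10 cycles. In no assay detected in all 6 samples do the strains separate, and the readings at 40 are mostly those of C57BL/6J mice.

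The assay for the 5p arm, hsa-miR-129, had raw thresholds of 21.737, 21.636 and 21.501 cycles in BTBR replicates 1 to 3, against 21.532, 21.576 and 21.311 in C57BL/6J replicates 1 to 3. The strains overlap, and the spread within a strain is small: the means were 21.62 ± 0.118 cycles in BTBR and 21.47 ± 0.142 in C57BL/6J (SD, n = 3 each). In the authors' normalized table the same assay stood at 22.2288, 23.0805 and 21.8882 cycles in BTBR, against 20.95, 20.7015 and 20.5407 in C57BL/6J. There every BTBR value is above every C57BL/6J value. The log2 change was -1.67 ± 0.39 (SE), which is 3.18-fold less in BTBR (limma adjusted p = 0.0301). The authors' deposited table gives this assay an adjusted p of 0.107, the smallest of the 11 assays of the set it holds, so 0 of the 11 are under 0.05 there, against 48 of 306 assays (15.7%). On raw thresholds with no centring it was -0.15 ± 0.25 (SE). Centred on the global mean it was -0.55 ± 0.36 (SE, limma adjusted p = 0.351). The median change of all 231 assays on the authors' scale was -1.13, and hsa-miR-129 lay 0.54 below it. The call was lost without BTBR replicate 1 or 2, or without C57BL/6J replicate 2 or 3, with adjusted p between 0.0657 and 0.0858 in those 4 limma fits. The log2 change of hsa-miR-129 in them was -1.75, -1.33, -1.65 and -1.57, in that order, each with 1 mouse fewer.

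**Figure D2:**
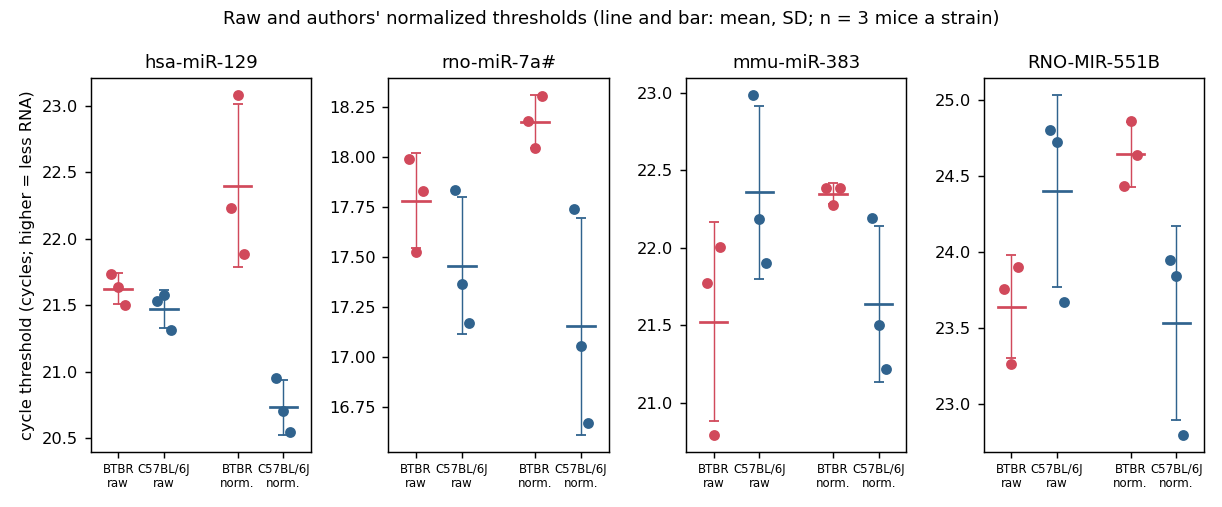
Raw and authors' normalized thresholds (y axis, cycles) of the 4 assays whose normalized values do not overlap between strains, with BTBR in red left of C57BL/6J in blue; points are mice, lines means and bars SD (n = 3 each). The strains overlap on the raw side of every panel and separate on the normalized side.

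The assay mmu-miR-129-3p reads a 3p arm, whose seed differs from that of the 5p arm. The 3p sequence shown above comes from Mir129-2 alone, whereas the 5p sequence comes from both hairpins. Its raw thresholds were 17.468, 17.427 and 16.948 cycles in BTBR and 16.638, 16.568 and 19.076 in C57BL/6J. C57BL/6J replicate 3 was the latest of the 6 and the other C57BL/6J samples the earliest, so the BTBR values lay inside the C57BL/6J range. The log2 change was -0.30 ± 0.70 (SE) in the authors' values and -0.25 ± 0.91 with the global mean. The difference between the arms within a sample, which needs no scaling, was 4.34 ± 0.184 cycles in BTBR and 4.05 ± 1.57 in C57BL/6J (SD, n = 3 each), with hsa-miR-129 the later of the pair in every sample. In C57BL/6J replicate 3 it was 2.235 cycles, against 4.894 and 5.008 in C57BL/6J replicates 1 and 2.

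With all samples in the fit, no assay of the miR-7 family passed on either scale. The passenger strand assay rno-miR-7a# read 17.992, 17.523 and 17.83 cycles in BTBR and 17.837, 17.364 and 17.171 in C57BL/6J. The raw values overlap, while on both scaled sets every BTBR sample lay below every C57BL/6J sample in level. Its log2 change was -1.03 ± 0.36 (SE) in the authors' values (limma adjusted p = 0.0687) and -0.72 ± 0.30 with the global mean (limma adjusted p = 0.186). Without C57BL/6J replicate 1 it passed on the authors' scale, with a log2 change of -1.32 (limma adjusted p = 0.0497). The assay rno-miR-7# read 18.986, 17.736 and 18.753 cycles in BTBR and 18.962, 18.926 and 18.295 in C57BL/6J, and the strains overlapped on all scales. Its log2 change was -0.63 ± 0.39 (SE) in the authors' values and -0.16 ± 0.34 with the global mean, where the 95% interval ran from -0.99 to 0.67. Between these assays the threshold of rno-miR-7# was later by 0.71 ± 0.432 cycles in BTBR and by 1.27 ± 0.253 in C57BL/6J (SD, n = 3 each).

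The main strand of miR-7b was read late and with a wide spread in BTBR. Its assay mmu-miR-7b had raw thresholds of 26.394, 24.77 and 29.074 cycles in BTBR and 27.46, 26.52 and 25.763 in C57BL/6J. BTBR holds both the earliest and the latest value. The late reading of BTBR replicate 3 stands at 40 in the normalized table, where the fit used 2 BTBR values and gave a log2 change of -1.65 ± 0.65 (SE, limma adjusted p = 0.107). With all 6 values and the global mean it was -0.56 ± 0.95 (SE), and 0.47 without BTBR replicate 3. The fly design dme-miR-7 was detected in BTBR replicates 1 and 2, at 29.901 and 25.901 cycles, and was undetermined in BTBR replicate 3 and in all C57BL/6J samples.

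For miR-137 the direction was the opposite one, and the spread in C57BL/6J was wide. Its assay mmu-miR-137 read 18.326, 17.77 and 18.797 cycles in BTBR and 17.953, 20.064 and 19.639 in C57BL/6J. C57BL/6J replicate 1 lay among the BTBR values and the other C57BL/6J samples above them. The log2 change was 0.20 ± 0.53 (SE) in the authors' values and 0.53 ± 0.73 with the global mean, and neither passed. The 95% interval around the second value ran from -1.27 to 2.32.

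The assay hsa-miR-138, for the miRNA known to restrain spine growth in rat hippocampal neurons, was read near the lower limit of 10 cycles in every sample. Its raw thresholds were 11.572, 10.912 and 11.051 cycles in BTBR and 10.62, 10.757 and 9.596 in C57BL/6J. Every BTBR reading was later than every C57BL/6J reading, the one under 10 included. That reading, of C57BL/6J replicate 3, stands at 40 in the normalized table, and the other 5 samples share there the table's lowest value, 11.01 cycles, so the authors' scale carries no difference for this assay. With the global mean the log2 change was -1.06 ± 0.43 (SE, limma adjusted p = 0.192) from 2 C57BL/6J values. With the reading under 10 kept, a choice made after seeing the data, it was -1.25 ± 0.38 (SE, limma adjusted p = 0.141). Centred instead on the median of the snoRNA135 and snoRNA202 spots it passed, at -1.63 (limma adjusted p = 0.0354), where the median change of all 270 assays was -1.02 and 25.2% of the 270 passed, a larger share than 1 of 10. Its second strand, mmu-miR-138#, read 12.102, 18.041 and 17.444 cycles in BTBR and 17.806, 7.805 and 6.385 in C57BL/6J. The 6 readings span over 11 cycles, and those under 10 stand at 40 in the normalized table, which left 1 C57BL/6J value and no test. In the authors' deposited table of folds, where 40 entered the means, the BTBR over C57BL/6J ratio is 811 for hsa-miR-138 (adjusted p = 0.543) and 81042 for mmu-miR-138# (adjusted p = 0.27). For both assays the readings behind the 40 were the earliest of the 6, so these ratios run against the raw thresholds.

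The assay hsa-miR-218 reads the arm made from the Slit2 and Slit3 introns. Its raw strain means were 0.054 cycles apart, the closest of the 10 tested assays. It read 16.73, 16.194 and 15.941 cycles in BTBR and 16.759, 16.256 and 15.687 in C57BL/6J. The BTBR values lay within the C57BL/6J range. The log2 change was -0.41 ± 0.47 (SE) in the authors' values and -0.45 ± 0.39 with the global mean, where the 95% interval ran from -1.39 to 0.50. The passenger strands were read in few samples. The assay hsa-miR-218-2# was detected in BTBR replicates 2 and 3, at 23.841 and 25.025 cycles, and mmu-miR-218-1# in BTBR replicate 2, at 22.783 cycles. In all C57BL/6J samples both were undetermined.

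The direction for miR-383 and miR-551b turned with the scale. The assay mmu-miR-383 read 21.772, 20.794 and 22.002 cycles in BTBR and 22.983, 22.187 and 21.904 in C57BL/6J. The strains overlap at a single pair of samples, BTBR replicate 3 and C57BL/6J replicate 3. Its log2 change was -0.71 ± 0.34 (SE) in the authors' values (limma adjusted p = 0.145) and 0.44 ± 0.33 with the global mean (limma adjusted p = 0.392). All BTBR samples were lower than all C57BL/6J samples on the first scale and higher on the second. The assay RNO-MIR-551B read 23.756, 23.261 and 23.903 cycles in BTBR and 24.802, 24.721 and 23.673 in C57BL/6J. C57BL/6J replicate 3 lay among the BTBR values. Its log2 change was -1.11 ± 0.40 (SE) in the authors' values (limma adjusted p = 0.0725) and 0.36 ± 0.33 with the global mean (limma adjusted p = 0.465). The second assay of that name, hsa-miR-551b in pool A, was detected in BTBR replicates 1 and 2, at 24.779 and 24.515 cycles, and undetermined in the other 4 samples, although RNO-MIR-551B read all 6 samples.

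The miR-153 assay, for a miRNA known to act on genes of synaptic vesicle release, could not be tested. It was detected in all BTBR samples, at 28.699, 29.362 and 28.77 cycles, and in C57BL/6J replicate 2 alone, at 26.94 cycles. The single C57BL/6J reading was thus earlier than every BTBR reading.

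**Figure D3:**
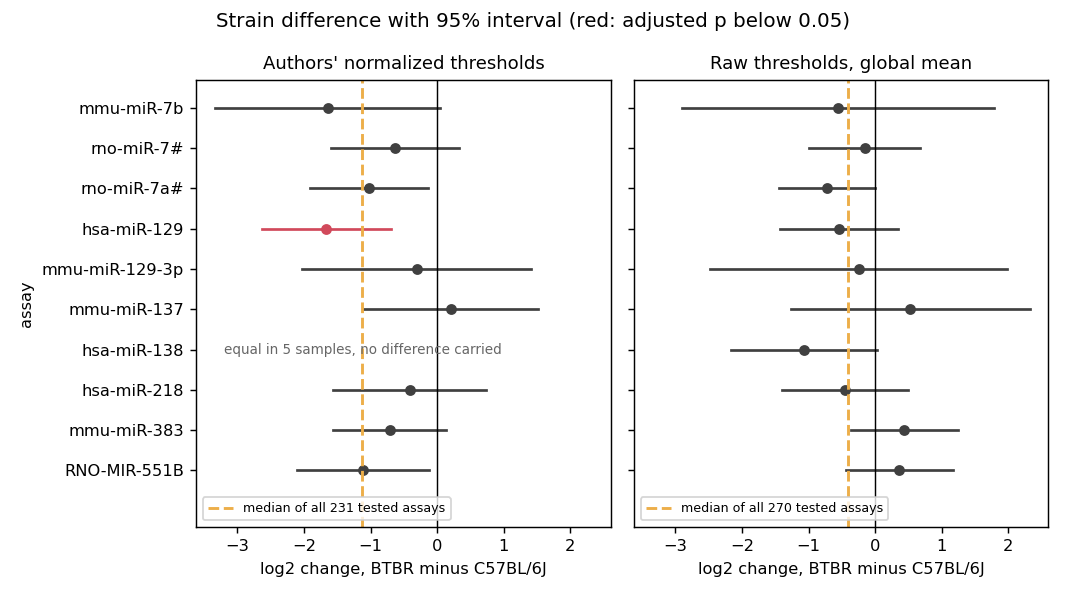
Log2 change, BTBR minus C57BL/6J (x axis), of the 10 tested assays (y axis) on the authors' normalized scale (left) and the global mean scale (right); points are limma estimates, lines 95% intervals, red an adjusted p under 0.05, and the dashed line the median of all tested assays. The interval of hsa-miR-129 on the left is the one in red, and every interval on the right crosses 0.

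Across the set, 8 of the 10 tested assays had a negative change on the authors' scale, 1 a positive one and 1 carried no difference. Their median was -0.67, against -1.13 over all 231 assays. With the global mean 7 were negative and 3 positive, with a median of -0.35, against -0.40 over all 270 assays. Among the 8 assays with 6 normalized values, 4 were lower in every BTBR sample than in every C57BL/6J sample on the authors' scale (hsa-miR-129, rno-miR-7a#, mmu-miR-383 and RNO-MIR-551B), against 57.7% of all 189 such assays, and 0 were higher throughout, against 1.59%. With the global mean 1 of 9 was lower throughout, rno-miR-7a#, against 23.2% of 237 assays, and 1 was higher throughout, mmu-miR-383, against 11.8%. On raw thresholds 0 of the 9 separated, against 18.1% of assays that were lower throughout and 14.3% that were higher. In each case the share of the set was near or below that of the panel.

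Between the raw and the normalized table, thresholds of the set moved up in BTBR and down in C57BL/6J, by amounts that differed between assays. The exception was hsa-miR-138, with shifts of -0.17 in BTBR and 0.32 in C57BL/6J. The strains did not always move apart. The BTBR minus C57BL/6J difference went from -0.92 to -0.20 cycles for mmu-miR-137 and from -0.84 to 0.71 for mmu-miR-383. For hsa-miR-129 the normalized threshold was 0.77 cycles above the raw one in BTBR and 0.74 below it in C57BL/6J. For RNO-MIR-551B the shifts were 1.00 up in BTBR and -0.87 in C57BL/6J, and for mmu-miR-383 they were 0.83 up and -0.72. For the earlier hsa-miR-218 they were 0.21 in BTBR and -0.15 in C57BL/6J. Over the 189 assays with 6 values the medians of these shifts were 0.74 in BTBR and -0.61 in C57BL/6J.

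**Figure D4:**
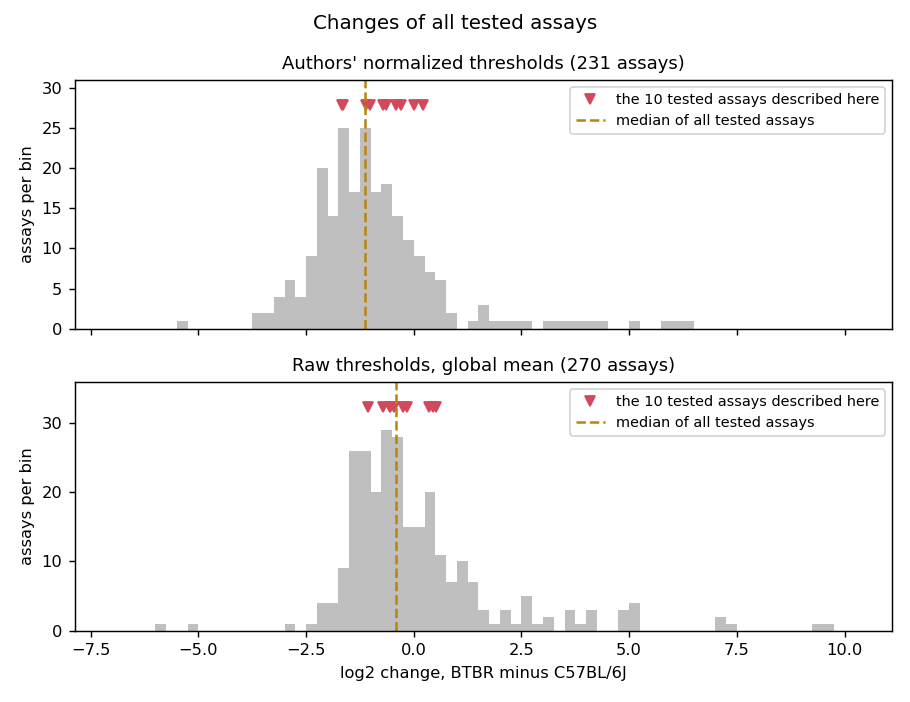
Histogram of the log2 changes (x axis, BTBR minus C57BL/6J) of all tested assays (y axis, assays per bin) on the authors' normalized scale (top) and the global mean scale (bottom); triangles are the 10 assays described and the dashed line the panel median. The triangles lie between -1.67 and 0.20 on the authors' scale and between -1.06 and 0.53 on the global mean scale, inside the bulk of the panel.

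Readings were more often present in BTBR. Over all 6 samples, 9 of the 16 assays were detected in each one, against 31.6% of the panel, and 0 in none, against 38.4%. Per sample, 14, 16 and 13 of the 16 assays were detected in BTBR replicates 1 to 3 and 11, 11 and 9 in C57BL/6J replicates 1 to 3. Of the 16 assays, 7 were detected in more BTBR than C57BL/6J samples and 0 in fewer, against 156 (20.8%) and 50 (6.67%) of the 750 assays of the panel. Of the 750, 288 were detected in no sample and could not differ between strains. The set holds 0 such assays, so its share and that of the panel are not like for like. No excess in the set can be read from these shares, here or in the next count. With readings under 10 cycles counted as well, miR-138 and its second strand no longer differed. Against 20.8% of all 750 assays, those never read included, 5 of the 16 were then read in more BTBR samples. These were dme-miR-7, mmu-miR-153, hsa-miR-551b, hsa-miR-218-2# and mmu-miR-218-1#. No p is given for these counts, since the assays were chosen with earlier results of these data known.

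The assays nearest in pattern were sought over the 6 samples on the global mean scale, as the smallest root mean square difference after each assay's own mean was removed. For hsa-miR-129 they were hsa-miR-29a (0.107 cycles) and mmu-miR-676 (0.13), against a median of 0.582 over the 236 other assays. For rno-miR-7# they were mmu-miR-872# (0.115) and MMU-MIR-1937B (0.199), and for hsa-miR-218 hsa-miR-433 (0.142) and hsa-miR-323-3p (0.157). The nearest to rno-miR-7a# was hsa-miR-370 (0.142), to RNO-MIR-551B mmu-miR-495 (0.161), and to mmu-miR-383 mmu-miR-136 (0.209). The wide patterns of mmu-miR-137, mmu-miR-129-3p and mmu-miR-7b had no assay closer than 0.39, 0.403 and 0.711 cycles. For none of these 9 assays was either of the 2 nearest another assay of the set, and the other 7 were not compared.

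Other neuronal miRNAs, from a list of names that holds none of the above, were read by 18 assays, of which 11 could be tested. On the authors' scale 2 fell, mmu-miR-598 (log2 change -2.14, limma adjusted p = 0.0362) and rno-miR-598-5p (-3.01, limma adjusted p = 0.0339), 0 rose and 9 did not pass, so the 2 of 11 lie below the 35.5% of the panel that passed as lower. The activity-regulated hsa-miR-132 was at 0.29 (standard error 0.29) and the neuron-specific mmu-miR-124a at 1.97 (0.95) on that scale. With the global mean they were at -0.45 (standard error 0.50) and 5.21 (1.86), and neither passed on either scale. The 5.21 includes a late raw reading of mmu-miR-124a, 31.396 cycles in C57BL/6J replicate 1, against 24.827 and 24.444 in C57BL/6J replicates 2 and 3. Of the 11 changes, 4 were positive and 7 negative on the authors' scale, and 5 positive and 6 negative with the global mean. The median of the 11 was -0.55 in the authors' values and -0.42 with the global mean, where 0 passed and 3 had an unadjusted p under 0.05, against 26.3% of the panel.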

How the data were processed

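Total RNA purified on columns (100 ng per sample, RNA integrity number 9) was reverse transcribed, pre-amplified and run on the TaqMan OpenArray rodent panel, per the labels' protocols. One deposited table holds raw cycle thresholds. A second holds quantile-normalized thresholds, per the file headers. Its further steps were rebuilt from the raw table: readings under 10 became 40, sparsely detected assays were dropped, and values above 29.19 cycles became 40. The rebuilt table matched in all 306 assays, with 0 cells differing in being at 40. The limit of 29.19 cycles was itself taken as the largest deposited normalized value, so the match does not test that limit. The authors' deposited fold table lists a ratio, a log2 difference in which a positive value means less RNA in BTBR, a test score and both raw and adjusted p-values, per the file headers.

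The sign of each threshold was turned, which gives log2 units, and 40 was treated as missing. Every assay with at least 2 values per strain entered a limma 3.58.1 fit (R 4.3.3), strain being the single term. Alternatives were other scalings, late or early readings kept, 40 as a value, a stricter filter, other shrinkage, each sample left out and the replicate number as a block. In simulated data for BTBR against C57BL/6J (231 assays), the share of true changes found was 16.6% at 1 cycle, 58.9% at 2 and 74.9% at 3, while 4.81% of calls were false. Each of 50 runs changed 60 assays in random directions, with noise independent between assays and no shift shared by the panel. The share of false calls therefore does not cover data with a shared shift, such as the panel median of -1.13 on the authors' scale. A threshold has no counting depth, so 3 mice per strain set the precision. The miRNAs and lists were chosen with earlier results of these data known. For that reason a planned permutation test of the number of detected assays is left out. All 16 assays are named, and the 2 nearest patterns were sought for each assay detected in all 6 samples. The labels give 3 dissected cortices per strain.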

Additional observations from a re-analysis of the deposited data

Results flagged for a closer look

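Of the assays left out of the tests, 4 had a reading in BTBR and none in C57BL/6J. The earliest BTBR thresholds were 25.9 cycles for dme-miR-7 (2 of 3 samples), 24.52 for hsa-miR-551b (2 of 3), 23.84 for hsa-miR-218-2# (2 of 3) and 22.78 for mmu-miR-218-1# (1 of 3). All 3 C57BL/6J samples were undetermined for each of them. BTBR replicate 2, which had a reading for all 4, also had the most detected assays of the panel, 404 of 750. Whether these readings follow from that was not tested. Readings in BTBR alone were not particular to the set: hsa-miR-34c, hsa-miR-135a and hsa-miR-486 also had them. In turn, hsa-miR-124# and mmu-miR-488# were read in C57BL/6J alone. Of the 750 assays, 156 (20.8%) were detected in more BTBR than C57BL/6J samples, which is a wider class. The share of the panel read in BTBR alone was not counted.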

How the results depend on the processing

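The single call on the authors' scale, hsa-miR-129, was also made with 40 kept as a value, with late readings kept, with 3 values per strain and with robust, trended shrinkage. The count was 0 on the global mean of the same cells, on sample medians, with no centring, on the global mean within pools and on the U6 rRNA spots, and ranged from 0 to 2 when 1 sample was left out, while the share of the panel that passed ranged from 0% to 47.6% (29.1% where the count was 2). Deviations of same-numbered mice correlated at 0.083, 0.421 and -0.0013, and those of differently numbered mice at -0.377 to 0.256. With 3 mice per strain, these values cannot decide whether the numbers pair the mice. With the replicate block the count was 0 (hsa-miR-129 at a limma adjusted p of 0.05003), and the panel count was 49 of 226 assays, against 85 of 231. On the global mean scale the count of 0 became 1 with the snoRNA spots (hsa-miR-138), where 68 of 270 panel assays passed, and was 0 with the other settings, replicate block included, with 57 of 258 panel assays passing without BTBR replicate 3. Over the 16 settings tried in place of the authors' scale fit, hsa-miR-129 stayed negative, between -1.92 and -0.15, with limma adjusted p from 0.0184 to 0.755. Of the authors' scale changes, these turned positive. With sample medians hsa-miR-218 was at 0.76, mmu-miR-129-3p at 0.87, rno-miR-7# at 0.54, mmu-miR-383 at 0.46, rno-miR-7a# at 0.15 and RNO-MIR-551B at 0.065. With no centring mmu-miR-129-3p was at 0.15, rno-miR-7# at 0.24, mmu-miR-383 at 0.84 and RNO-MIR-551B at 0.76. On the global mean of the same cells rno-miR-7# was at 0.056, mmu-miR-383 at 0.66, mmu-miR-7b at 0.78 and RNO-MIR-551B at 0.58. Within pools mmu-miR-383 was at 0.36 and RNO-MIR-551B at 0.51, and on U6 rRNA 0.51 and 0.43. With the snoRNA spots, mmu-miR-137, mmu-miR-383 and RNO-MIR-551B turned from positive on the global mean scale to -0.0745, -0.16 and -0.24. Leaving out 1 sample at a time gave mmu-miR-137 from -0.14 to 0.67 and mmu-miR-129-3p from -1.07 to 0.11 on the authors' scale, and on the global mean scale mmu-miR-129-3p from -1.25 to 0.33, rno-miR-7# from -0.34 to 0.025 and mmu-miR-7b from -1.35 to 0.47. The cause of these turns was not tested. The difference in detected assays per sample, 4 (BTBR minus C57BL/6J), was 3 with early readings counted.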
